A study of Sus scrofa with 6 samples.

Results

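The 7 genes described here make cholesterol or sense it, namely *SREBF2*, *SCAP*, *INSIG1*, *HMGCS1*, *FDFT1*, *SQLE* and *LSS*. They were taken by gene symbol from the deposited table, and each symbol matched 1 of its 31908 Ensembl genes. The list was given under a name that also mentions uptake of low-density lipoprotein (LDL), but none of the 7 is an uptake gene, so uptake is covered only by a wider list below. The level of a gene was the sum of its transcripts in FPKM, a fragment count corrected for transcript length and library total, which allows levels of different genes to be compared per length.

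The samples were longissimus dorsi (LD), the loin muscle along the spine, of 6 castrated male Laiwu pigs, a fatty breed of North China. In the S-H group were the 3 pigs LW63, LW70 and LW119, chosen for an extremely high intramuscular fat (IMF) content, and in the S-L group the 3 pigs LW82, LW88 and LW90, chosen for an extremely low one. The pigs came from 1 breeding company, and no treatment, genotype or age was given for them in the sources used here. From every pig 1 library without ribosomal RNA was sequenced, and since FPKM gives no counts, how many reads a value rests on is unknown.

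Of 10 muscle fibre markers 4 were found under their symbols and *ACTA1* by its gene ID, at high levels, with *CKM*, the muscle creatine kinase, between 1985 and 3939 FPKM. Of 5 liver markers *TTR* was listed at 0 in every pig and *ALB* reached at most 0.156 FPKM, but *APOA1* lay between 6.49 and 11.6 FPKM, with the groups overlapping. Of 8 adipocyte markers 7 were in the table under their symbols, none of them at 0, and they summed to between 444 and 1294 FPKM in S-H and between 255 and 376 FPKM in S-L. Among them 5 passed the test described below, as did 1.36% of all tested genes, and all 5 were higher in S-H. The number was 4 after division by size factors and 3 after quantile normalization. Adipocyte RNA thus moved with the groups, and its part in the values that follow was not tested. In whole muscle, fewer cells of a type and less RNA per cell cannot be told apart. The libraries also differed in general level, with median-ratio size factors from 0.808 in LW90 to 1.15 in LW119.

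Cholesterol synthesis is controlled by a sterol sensor in the membrane of the endoplasmic reticulum. SCAP, the sensor and escort protein, carries the membrane-bound transcription factor encoded by *SREBF2* to the Golgi apparatus, where it is cleaved and released to the nucleus to switch on genes of cholesterol synthesis and of LDL uptake. When sterols are plentiful the protein of *INSIG1* holds SCAP back, and *INSIG1* is itself a target of the factor. HMGCS1 makes the precursor of mevalonate, FDFT1 (squalene synthase) commits the pathway to sterols, SQLE oxidizes squalene, and LSS (lanosterol synthase) closes the sterol ring system. Skeletal muscle fibres have only a modest synthesis, and adipocytes store cholesterol in their lipid droplets.

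Differences between S-H and S-L were tested with limma on log2(FPKM + 0.1) across the 12744 protein-coding genes with a mean of at least 0.1 FPKM, and a gene passed where its unadjusted p was below 0.01 and its log2 fold change was 1 or more in size. All 7 genes reached the minimum and were tested. None of the 7 passed, against 1.36% of all tested genes, and the lowest Benjamini-Hochberg adjusted p among them was 0.580 (limma). An unadjusted p below 0.05 was reached by 3 of the 7, *LSS*, *INSIG1* and *FDFT1*, against 8.15% of all tested genes. For *FDFT1* it was 0.164 after division by size factors and 0.119 after quantile normalization, and for *INSIG1* 0.0538 after quantile normalization (limma). The estimate lay above 0 for all 7, as it did for 74.1% of all tested genes, and the median log2 fold change was 0.41 over the 7 and 0.21 over all tested genes. After division by the size factors these medians were 0.23 and 0.0064. On that scale 6 of the 7 estimates were above 0, against 50.9% of all tested genes.

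In 3 of the 7 genes, *SCAP*, *FDFT1* and *LSS*, the lowest S-H pig exceeded the highest S-L pig, which held for 13.1% of all tested genes. Summed over the 7 genes, S-H reached 34.9 ± 2.09 FPKM and S-L 23.4 ± 3.09 FPKM (mean ± SD, n = 3 each). The sum was higher in each S-H pig than in any S-L pig (p = 0.10 by an exact permutation test, two-sided, and no smaller p is possible with 3 pigs against 3). *FDFT1* and *HMGCS1* together outweighed the other genes in both group means.

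**Figure D1:**
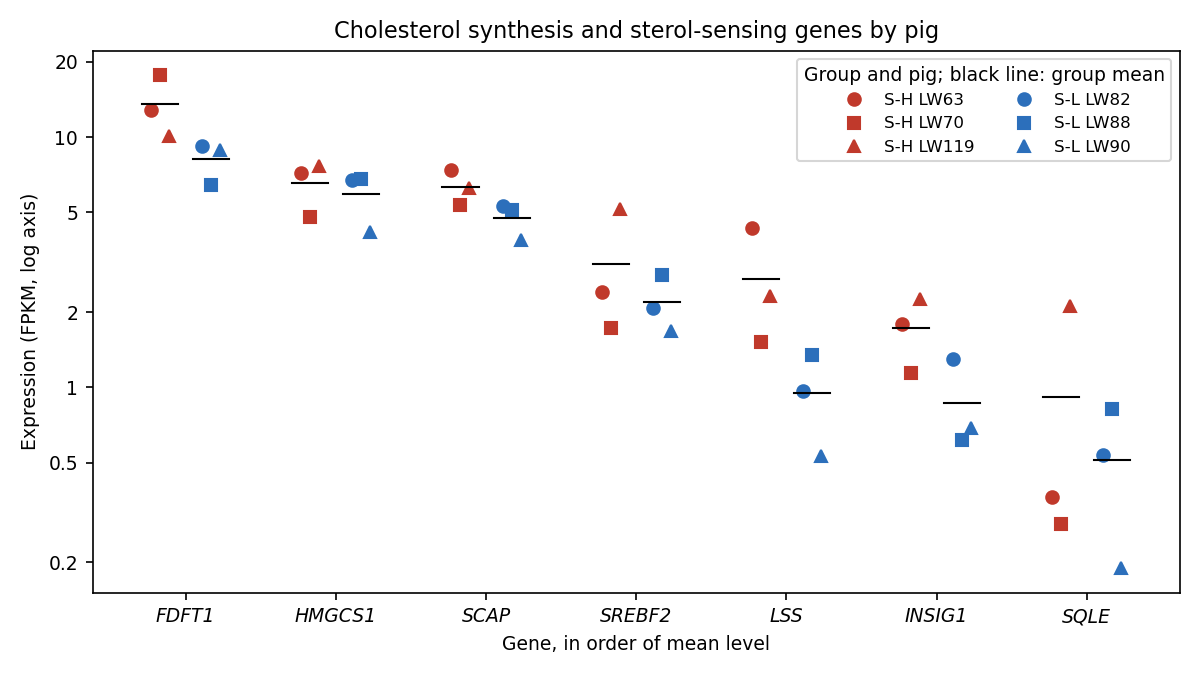
Expression of the 7 genes in each pig, in FPKM on a log axis, with genes in order of mean level from left to right; red symbols are S-H pigs, blue symbols S-L pigs and black lines group means. The groups are separate for FDFT1, SCAP and LSS, and LW119 stands above the other pigs for SREBF2 and SQLE.

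The levels followed the order *FDFT1*, *HMGCS1*, *SCAP*, *SREBF2*, *LSS*, *INSIG1* and *SQLE*, from a mean of 10.9 ± 3.92 FPKM (SD over n = 6 pigs) down to 0.716 ± 0.716 FPKM (SD over n = 6 pigs). *FDFT1* thus exceeded 77.3% of the tested genes and *SQLE* 17.7% of them. For every pair of neighbours in this order the ranges over the pigs overlapped. Within single pigs, *SCAP* was above *SREBF2* in 6 of 6, *FDFT1* above *HMGCS1* in 5 of 6, and *HMGCS1* above *SCAP* in only 4 of 6.

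Among the regulators, *SREBF2* (ENSSSCG00000026092, chromosome 5, 6719487 to 6784672 of Sscrofa11.1) had 2.41 FPKM in LW63, 1.73 in LW70 and 5.17 in LW119, against 2.08 in LW82, 2.80 in LW88 and 1.68 in LW90. A single S-H pig, LW119, was above all S-L pigs, and the other two lay within the S-L range. The log2 fold change was 0.37 ± 0.40 (SE, limma, unadjusted p of 0.378, adjusted p of 0.794). Without LW119 the estimate was -0.063.

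*SCAP* (ENSSSCG00000026281, chromosome 13, 30253268 to 30320526) had 7.36 FPKM in LW63, 5.37 in LW70 and 6.26 in LW119, against 5.30 in LW82, 5.12 in LW88 and 3.87 in LW90. The groups did not overlap, but LW70 and LW82 were almost level. Its log2 fold change was 0.40 ± 0.26 (SE, limma, unadjusted p of 0.146, adjusted p of 0.661). With size factors the estimate fell to 0.19, the lowest among all settings tried, and the groups still did not overlap.

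*INSIG1* (ENSSSCG00000016420, chromosome 18, 2885611 to 2898767) had 1.79 FPKM in LW63, 1.15 in LW70 and 2.26 in LW119, against 1.29 in LW82, 0.617 in LW88 and 0.686 in LW90. LW82 alone among the S-L pigs exceeded an S-H pig, LW70. The log2 fold change was 0.94 ± 0.38 (SE, limma, unadjusted p of 0.0313, adjusted p of 0.600). It stayed above 0 in each of the 17 other settings, and passed the thresholds in 1 of them, without LW82, at 1.24 with an unadjusted p of 0.00929 (limma), with no adjusted p below 0.412 in any of these settings.

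The first enzyme of the list, *HMGCS1* (ENSSSCG00000016872, chromosome 16, 27936217 to 27957194), had 7.18 FPKM in LW63, 4.79 in LW70 and 7.69 in LW119, against 6.75 in LW82, 6.79 in LW88 and 4.18 in LW90. The pigs of both groups were interleaved. Its log2 fold change was the smallest of the 7 genes at 0.15 ± 0.30 (SE, limma, unadjusted p of 0.618, adjusted p of 0.895). The sign depended on the scaling, with -0.064 after division by size factors and -0.042 after quantile normalization, and it was -0.075 without LW90.

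*FDFT1* (ENSSSCG00000026044, chromosome 14, 14967273 to 15104179) had 12.9 FPKM in LW63, 17.6 in LW70 and 10.1 in LW119, against 9.21 in LW82, 6.46 in LW88 and 8.90 in LW90. Every S-H pig was higher on this scale. The log2 fold change was 0.70 ± 0.28 (SE, limma, unadjusted p of 0.0326, adjusted p of 0.607). After division by size factors LW119 (8.77) was below LW82 (9.09) and LW90 (11.0), and the estimate was 0.48. *FDFT1* was the only one of the 7 with its highest level in LW70.

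*SQLE* (ENSSSCG00000005970, chromosome 4, 14669791 to 14700126), which is a rate-controlling enzyme of the sterol branch, had 0.365 FPKM in LW63, 0.285 in LW70 and 2.11 in LW119, against 0.534 in LW82, 0.818 in LW88 and 0.189 in LW90. It had the widest spread of the 7 genes relative to its level. LW119 carried the S-H mean, since the other S-H pigs were below LW82 and LW88. Its log2 fold change of 0.41 ± 0.67 (SE, limma, unadjusted p of 0.555, adjusted p of 0.870) became -0.39 without LW119 and -0.057 without LW90.

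*LSS* (ENSSSCG00000021418, on an unplaced scaffold, 519609 to 554041) had 4.33 FPKM in LW63, 1.51 in LW70 and 2.32 in LW119, against 0.967 in LW82, 1.34 in LW88 and 0.530 in LW90. The groups did not overlap, also after division by size factors, although LW70 and LW88 lay close together. It had the largest log2 fold change of the 7 genes, 1.38 ± 0.44 (SE, limma, unadjusted p of 0.0102, adjusted p of 0.580), and its unadjusted p lay just above the threshold. In 4 of the 17 other settings *LSS* passed, namely TPM (1.53), a robust variance (1.38), without LW70 (1.72) and without LW88 (1.66), with unadjusted p values from 0.00413 to 0.00868 (limma) and no adjusted p below 0.385. With TPM the estimates of all tested genes had a median of 0.35, and 83.7% of them lay above 0. The estimate of *LSS* was between 0.89 and 1.72 over all of these settings.

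**Figure D2:**
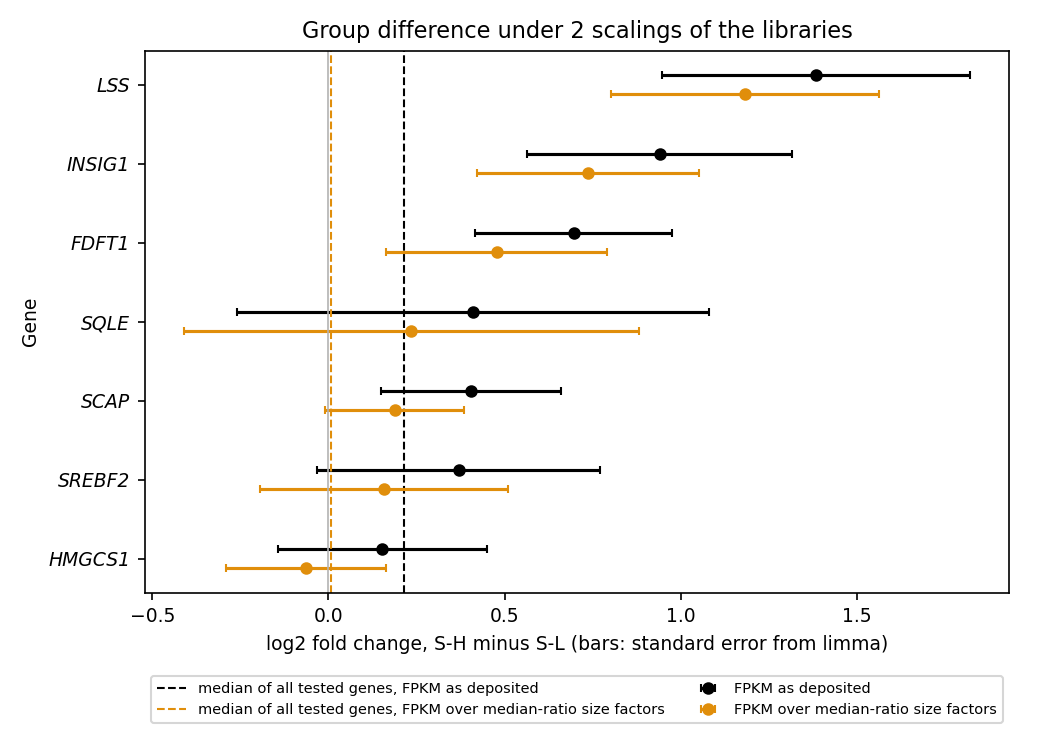
The log2 fold change of S-H minus S-L for the 7 genes, with bars of 1 standard error from limma, for FPKM as deposited (black) and FPKM divided by median-ratio size factors (orange); dashed lines are the medians of all tested genes, 0.21 and 0.0064. LSS and INSIG1 lie farthest to the right under both scalings, and HMGCS1 changes sign.

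The transcripts behind these levels were then examined, since the deposited table gives values for 33 transcripts of the 7 genes, 29 annotated and 4 assembled from the reads. Of these, 4 were listed at 0 in all pigs and 20 reached the minimum for testing. Transcripts were tested in the same way among 40336, of which 1.25% passed. Of the 7 genes' transcripts only LSS-201 was past the thresholds, which is no test of a difference, as given below. A single transcript made up most of the level of *SREBF2* (SREBF2-201, 93.4%), *SCAP* (SCAP-201, 93.7%), *HMGCS1* (HMGCS1-202, 92.2%) and *SQLE* (SQLE-201, 77.2%). In *LSS*, *FDFT1* and *INSIG1* the level was divided among several transcripts.

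LSS-201 spans 519609 to 554041 of the scaffold. LSS-201 had 0.677 FPKM in LW63, 0.908 in LW70 and 1.05 in LW119, and was listed at 0 in LW82, LW88 and LW90. It reached the minimum for testing only through the S-H pigs, and against a group at 0 its log2 fold change is set by the pseudocount (3.27 with 0.1 and 0.91 with 1), so its values are given without a p. It made up 32.4% of the *LSS* level in S-H and was the largest of its transcripts in LW70 and LW119. LSS-202, which ends within a few bases of it on both sides, held 10.5% of the level in S-H and 45.2% in S-L, at 0.611, 0.151 and 0.0931 FPKM in LW63, LW70 and LW119 and 0.531, 0.437 and 0.314 FPKM in LW82, LW88 and LW90. The difference in LSS-202 did not pass (log2 fold change -0.67 ± 0.61 SE, limma, adjusted p of 0.859). The largest part of the high *LSS* level of LW63 was LSS-204, with 2.12 FPKM, which had at most 0.703 FPKM in any other pig. Reads shared by these overlapping transcripts are divided by estimation, and a value of 0 can be a failed estimate, so that the division is less certain than the gene level.

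*FDFT1* was divided between FDFT1-204, with 52.5% of the level over the 6 pigs, and FDFT1-206, which spans a shorter stretch, with 45.2%. FDFT1-204 had 6.89 FPKM in LW63, 6.42 in LW70 and 7.72 in LW119, against 4.12 in LW82, 4.82 in LW88 and 4.22 in LW90, so that the S-H pigs were all higher and close to each other. Its log2 fold change was 0.66 ± 0.24 (SE, limma, unadjusted p of 0.0303, adjusted p of 0.848). FDFT1-206 was highest in LW70, with 10.6 FPKM, and lowest in LW88, with the groups interleaved. The high *FDFT1* level of LW70 was therefore held by FDFT1-206.

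The largest share of *INSIG1* came from an assembled transcript, TCONS_00137672, with 45.6% of the level over the 6 pigs. It had 1.07 FPKM in LW63, 0.568 in LW70 and 0.933 in LW119, against 0.357 in LW82, 0.304 in LW88 and 0.323 in LW90, and the groups did not overlap. Its log2 fold change was 1.12 ± 0.40 (SE, limma, unadjusted p of 0.0282, adjusted p of 0.848). The annotated transcripts INSIG1-201 and INSIG1-203 were listed at 0 in all pigs. In *SQLE*, the second transcript SQLE-202 was above 0 in 2 pigs, at 0.841 FPKM in LW119 and 0.139 FPKM in LW82.

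**Figure D3:**
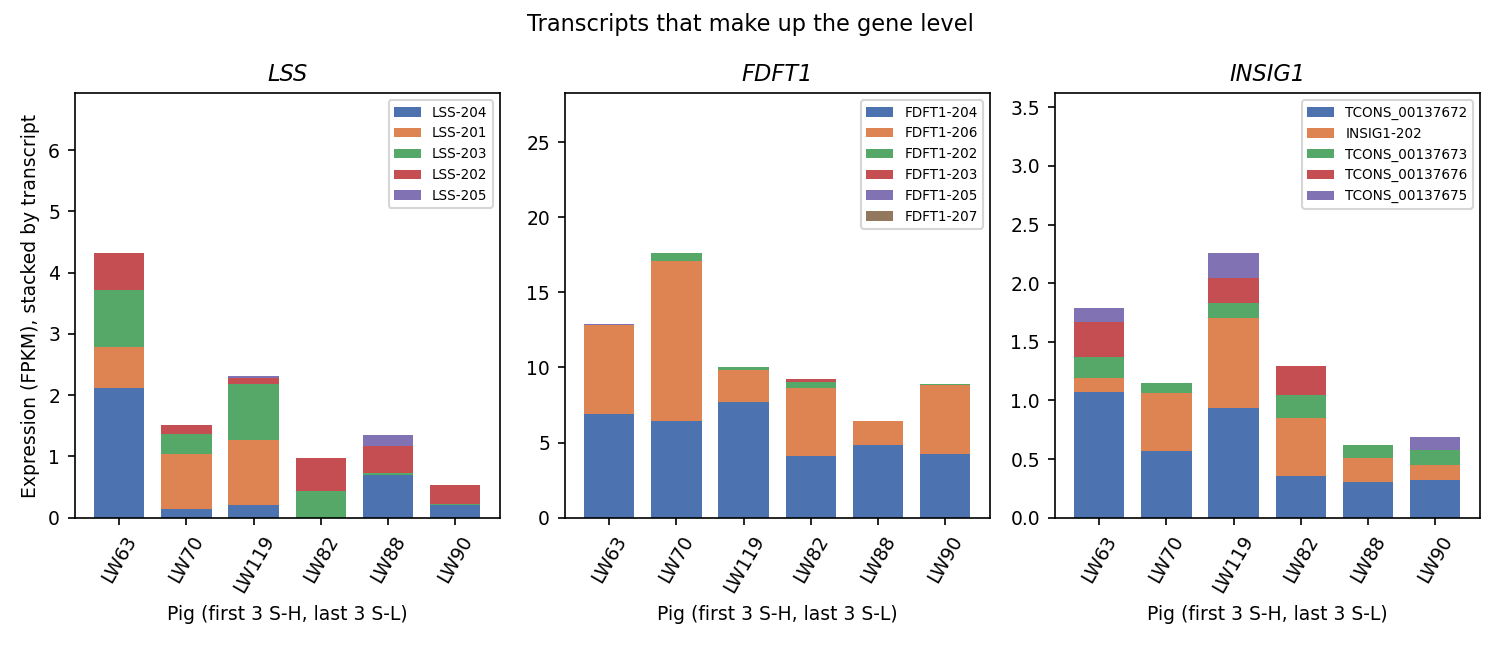
Level of LSS, FDFT1 and INSIG1 in FPKM in each pig (first 3 bars S-H, last 3 bars S-L), stacked by transcript. LSS-201 is present in the 3 S-H pigs and listed at 0 in the 3 S-L pigs, and FDFT1-206 is highest in LW70 with 10.6 FPKM.

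How the 7 genes varied together was described over the 6 pigs, which share the general level of their libraries. LW119 was the highest pig for 4 of the 7 genes, *SREBF2*, *INSIG1*, *HMGCS1* and *SQLE*, and for 30.6% of all tested genes. LW90 was the lowest pig for 5 of the 7 and for 40.9% of all tested genes. Of the 21 pairs of genes, 18 had a positive Pearson r on log2(FPKM + 0.1), with a median of 0.51. After division by size factors 16 were positive, with a median of 0.23. The 7 genes thus shared a part of their variation with the general level of the library.

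The closest of these relations were about as close after scaling. *SREBF2*, the transcription factor gene, and *SQLE*, a known target of its protein, had r = 0.96 over the 6 pigs and 0.94 after division by size factors, with Spearman's rho of 0.94. Without LW119 and LW90, the pigs farthest from the median of *SREBF2*, r was 0.79 over 4 pigs. *SCAP* and *LSS* had r = 0.97, and 0.96 after scaling, with Spearman's rho of 0.94 and r = 0.84 over 4 pigs without LW63 and LW90. *FDFT1* had a negative r with *SREBF2* (-0.27), *SQLE* (-0.34) and *HMGCS1* (-0.25), and -0.61, -0.63 and -0.86 after division by size factors. Spearman's rho on the unscaled values was only -0.086, -0.20 and 0.14 in the same order. Over 4 pigs without LW119 and LW90, but with LW70, the highest pig for *FDFT1*, r was -0.81 with *SREBF2* and -0.99 with *SQLE*. With *HMGCS1* it turned to 0.51 over 4 pigs without LW70 and LW90, so that this sign depended on the pigs included. The close relations and those of *FDFT1* were picked as the highest and lowest of the 21 after their values were seen.

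**Figure D4:**
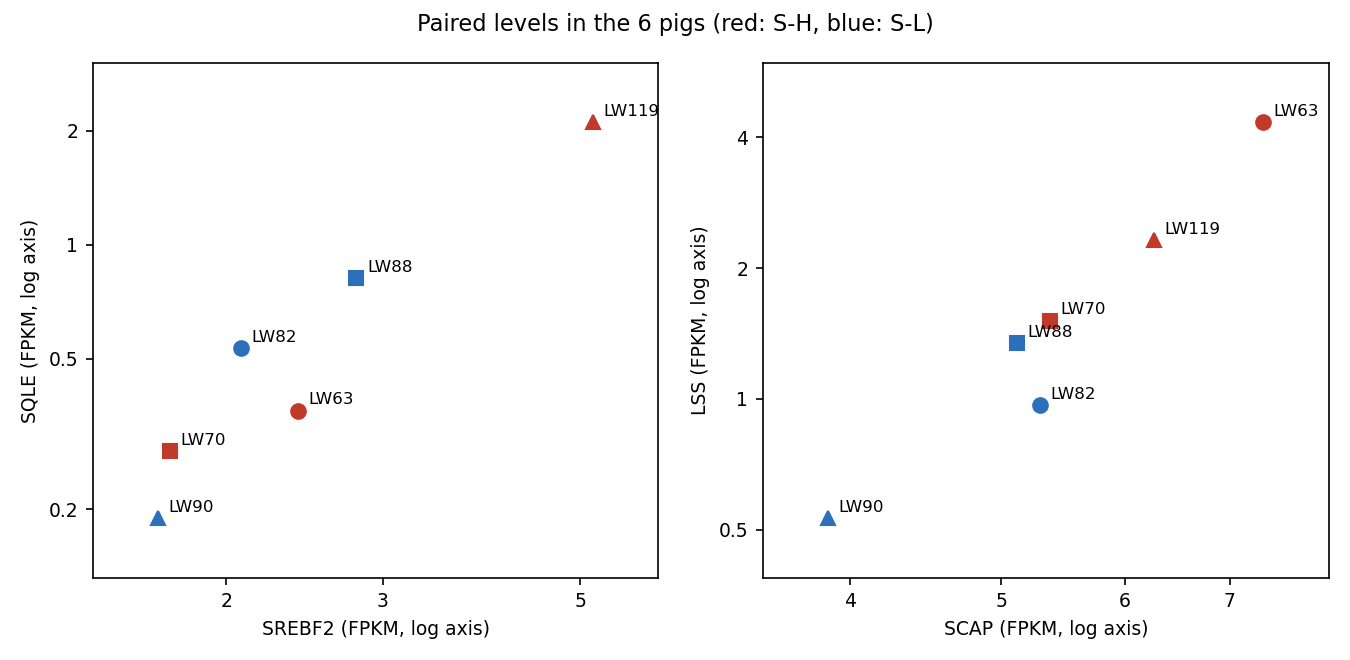
SREBF2 against SQLE and SCAP against LSS in the 6 pigs, in FPKM on log axes, with S-H pigs in red and S-L pigs in blue. LW119 is highest for both genes of the first pair, LW63 for both of the second pair, and LW90 is lowest in both plots.

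Ratios between 2 genes of the same pig do not depend on the scaling of the library. Among the 21 ratios, 3 had no overlap between the groups (exact two-sided permutation test on the log2 ratio, p = 0.10 for each and 0.70 after Benjamini-Hochberg adjustment over the 21). That is close to the background, since 12.3% of the ratios of all pairs of tested genes above 0 in every pig had no overlap in either direction, and the values of the 3 are given as a description. The ratio of *INSIG1* to *HMGCS1*, both targets of the same factor, was 0.249 in LW63, 0.239 in LW70 and 0.294 in LW119, against 0.192 in LW82, 0.0909 in LW88 and 0.164 in LW90. The ratio of *HMGCS1* to *LSS* was 1.66, 3.17 and 3.32 in these S-H pigs against 6.98, 5.06 and 7.88 in the S-L pigs. The ratio of *SCAP* to *LSS* was 1.70, 3.55 and 2.70 against 5.48, 3.81 and 7.30 in the same order.

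The remaining enzymes from acetyl-CoA to cholesterol were taken from a list of 17 genes, all of which were in the table and tested. None passed, 2 had an unadjusted p below 0.05, against 8.15% of all tested genes, and in 4 of the 17 the S-H pigs were all above the S-L pigs, against 13.1% of all tested genes. All 17 estimates were above 0, against 74.1% of all tested genes, with a median log2 fold change of 0.52. After division by size factors 14 of 17 were, against 50.9% of all tested genes, with a median of 0.32. With quantile normalization it was 15 of 17, against 49.1%. As in *SREBF2* and *SQLE*, LW119 was the highest pig for 11 of the 17, against 30.6% of all tested genes. LW90 was the lowest for 11, against 40.9% of all tested genes. These counts are on the unscaled values.

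*FDPS*, whose product makes the farnesyl diphosphate that FDFT1 uses, had the largest estimate of this list. It had 1.98 FPKM in LW63, 1.38 in LW70 and 2.40 in LW119, against 0.522 in LW82, 1.38 in LW88 and 0.354 in LW90. LW70 and LW88 were level, and the other S-L pigs were lower. The log2 fold change was 1.40 ± 0.45 (SE, limma, unadjusted p of 0.0109, adjusted p of 0.580), close to that of *LSS*. *FDPS* passed with TPM (1.56), with a robust variance (1.40) and without LW88 (1.89), with no adjusted p below 0.407 (limma) in these settings. *MVK*, the mevalonate kinase, had the smallest estimate of the list, at 0.094 ± 0.43 (SE, limma, adjusted p of 0.955).

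For the other genes of sterol sensing and processing of the factor, 9 of 11 listed genes were found and tested, and none passed. Their median log2 fold change was 0.24, near that of all tested genes, with 7 of 9 above 0 and 5 of 9 after division by size factors. *ERLIN2*, a membrane protein that takes part in the degradation of INSIG1, had the highest estimate at 0.59 ± 0.30 (SE, limma, adjusted p of 0.619).

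Of 11 genes of lipoprotein uptake and lysosomal cholesterol release, 10 were found and 9 tested, and none passed. The median log2 fold change was 0.35 with 6 of 9 above 0, the same number as after division by size factors. *LIPA*, the lysosomal acid lipase that frees cholesterol from its esters, had the highest estimate. It had 12.6 FPKM in LW63, 6.69 in LW70 and 6.72 in LW119, against 4.79 in LW82, 5.33 in LW88 and 3.04 in LW90. The groups did not overlap, and the log2 fold change was 0.94 ± 0.33 (SE, limma, unadjusted p of 0.0180, adjusted p of 0.580). *LIPA* passed only with TPM, at 1.07 (limma, unadjusted p of 0.00720, adjusted p of 0.407).

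The list of esterification, oxysterols and efflux had 10 genes, all tested, and 1 passed, against 1.36% of all tested genes. An unadjusted p below 0.05 (limma) was reached by 3 of the 10, against 8.15% of all tested genes. In 3 of the 10 the S-H pigs were all above the S-L pigs, against 13.1% of all tested genes. *APOE*, the apolipoprotein that carries cholesterol out of macrophages and adipocytes, had 49.5 FPKM in LW63, 21.2 in LW70 and 20.4 in LW119, against 7.89 in LW82, 7.90 in LW88 and 4.38 in LW90. Its log2 fold change was 2.08 ± 0.38 (SE, limma, unadjusted p of 0.000289, adjusted p of 0.262), and it passed in all 17 other settings with adjusted p from 0.0816 to 0.853 (limma). *NR1H3*, the gene of the oxysterol receptor LXR-alpha, had the lowest estimate, -1.72 ± 0.78 (SE, limma, adjusted p of 0.609), with 6.62 FPKM in LW63 but 0.515 in LW70 and 0.580 in LW119, while the S-L pigs lay between 3.62 and 6.92 FPKM. It passed only without LW63, at -2.84 with an unadjusted p of 3.37e-05 (limma). The median of the list was 0.38 with 8 of 10 above 0, and 0.17 with 6 of 10 after division by size factors.

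**Figure D5:**
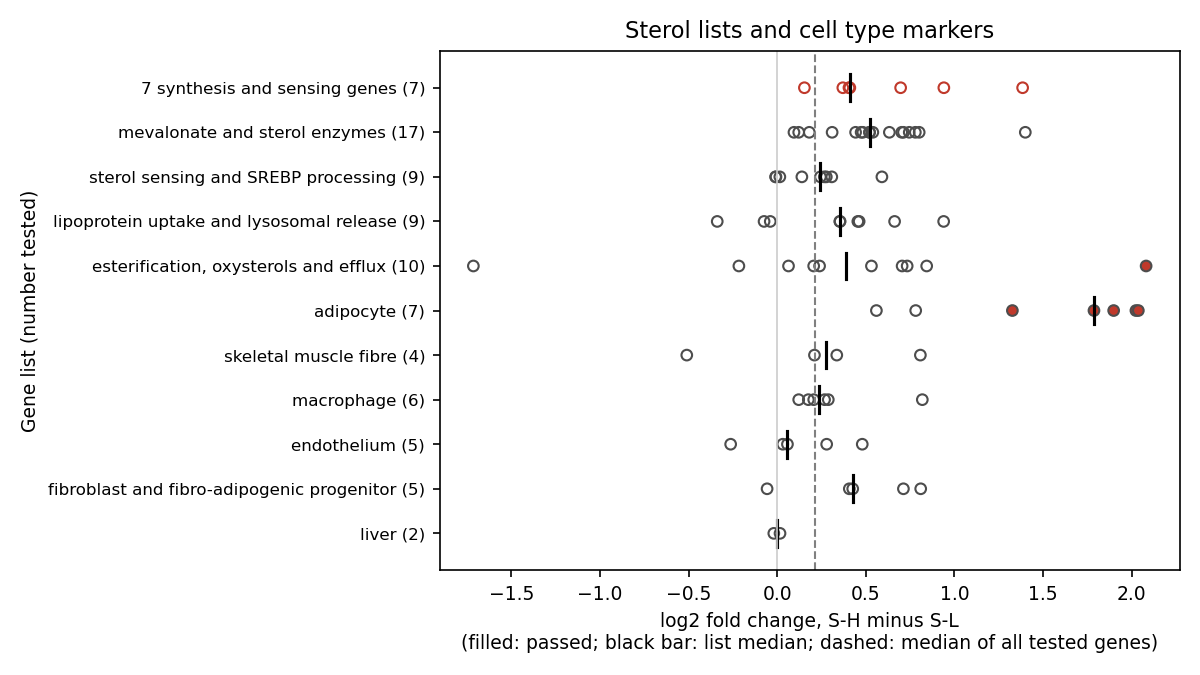
The log2 fold change of S-H minus S-L for the tested genes of the 7 synthesis and sensing genes, the 4 wider sterol lists and 6 lists of cell type markers; filled points passed, black bars are list medians and the dashed line is the median of all tested genes, 0.21. The 7 genes and the 17 enzymes lie to the right of 0, and the adipocyte markers lie farther right with a median of 1.79.

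The markers of cell types were set beside these values. The adipocyte list had a median log2 fold change of 1.79, and LW63 was the highest pig for all 7 of its genes. The macrophage list had a median of 0.24, with LW119 the highest pig for 4 of 6 genes and none that passed. The list of fibroblasts and fibro-adipogenic progenitors had a median of 0.43, with LW119 the highest for 4 of 5 and none that passed. The endothelial list (median 0.057), the muscle fibre list (0.27 over its 4 tested genes) and the liver list (-0.0022 over its 2 tested genes) had no call either. Of the 4 muscle fibre genes 3 had an estimate above 0, and the lowest was -0.51. *ACTA1* was not tested, and its mean was 655 FPKM in S-H and 1285 FPKM in S-L, with the groups overlapping. *SREBF2* and *SQLE*, and also *INSIG1* and *HMGCS1*, were thus highest in LW119, as were most macrophage and fibroblast markers. *SCAP* and *LSS* were highest in LW63, the pig with the highest adipocyte sum. LW119 was the highest pig for 30.6% of all tested genes and LW63 for 23.7%. Whether the cell makeup of the muscle pieces had a part in either pattern was not tested.

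The mean of the 7 genes over the pigs, each centred on log2(FPKM + 0.1), was 0.36 in LW63, -0.12 in LW70 and 0.69 in LW119, and -0.11 in LW82, -0.12 in LW88 and -0.70 in LW90. The groups overlapped narrowly in this mean, because LW70 was just below LW82. It had r = 0.97 with the log2 size factor over the 6 pigs. After division by size factors the mean was 0.20 in LW63, -0.07 in LW70 and 0.50 in LW119, and -0.12, -0.08 and -0.42 in LW82, LW88 and LW90. On that scale the groups did not overlap, with LW70 just above LW88. Of 11412 other tested genes with a symbol, 209 had an r of at least 0.95 with the unscaled mean. The 5 with the highest r were *CEMIP2*, *CACNB3*, *SLC27A4*, *B3GNT2* and *GP91-PHOX*, with r from 0.992 to 0.995 over 6 pigs. They encode a hyaluronidase of the cell surface, a calcium channel subunit, a fatty acid transport protein, a glycosyltransferase and a subunit of the phagocyte NADPH oxidase, in this order.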

How the data were processed

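Strand-specific libraries were made by the authors after removal of ribosomal RNA. Reads were aligned by Hisat2 to the pig genome Sscrofa11.1, and StringTie built and measured the transcripts (versions not given in the sources used here). The deposited values are FPKM per transcript and pig. The 21104 Ensembl transcripts without a symbol were taken to be on the TPM scale and were multiplied by 1 factor per pig, 0.639 to 0.847, computed from the table's own sums. The 7 genes all have a symbol and needed no conversion.

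Gene types came from RefSeq of the same assembly, by symbol (14189 genes) or reciprocal overlap of at least 50% (4391 genes). The 3 S-H and 3 S-L pigs were compared by limma 3.58.1 (trended variance, R 4.3.3) on log2 values, a step checked on simulated data, with the thresholds of the authors' methods. Sums and exact tests were computed in Python 3.11.15 (scipy 1.17.1, pandas 2.3.3).

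The 7 genes and the lists, written from general knowledge, were chosen with earlier results of these data known. Genes named were the 7, every wider-list gene that passed, the highest and lowest estimate of each wider list, and the 5 genes most like the mean of the 7. Some wider-list genes that this rule names are not reported here. Promoter and protein sequences were not analysed here. Alternatives were the pseudocount (1 or 0.01), the minimum (none or 1 FPKM), TPM, size factors, quantile normalization, the variance model, the top transcript, all Ensembl genes and each pig left out.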

Additional observations from a re-analysis of the deposited data

How the results depend on the processing

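The 7 genes had no call in 12 of the 17 other settings and 1 call in 5, namely TPM, a robust variance, and without LW70, LW82 or LW88, so that the range with a pig left out was 0 to 1. Their median log2 fold change was above 0 in every setting, from 0.21 with quantile normalization to 0.71 without LW63. The sign turned for *HMGCS1* with size factors (-0.064) and quantile normalization (-0.042). With a pig left out it ranged from -0.075 to 0.36 for *HMGCS1*, from -0.063 to 0.70 for *SREBF2* and from -0.39 to 0.87 for *SQLE*, with the negative values without LW90, LW119, and either of these pigs, in that order. *SQLE* was below a minimum of 1 FPKM. Over all tested genes 173 passed, 77 with a pseudocount of 1, 253 with TPM and 166 with a robust variance. With a pig left out the number was 86 (without LW90) to 261 (without LW82), with 248 without LW70 and 215 without LW88. Of the 173 in the main setting, 149 were higher in S-H, and with TPM 239 of 253. Size factors gave 84 of 139 and quantile normalization 69 of 131. No gene had an adjusted p below 0.05 (limma), and up to 9 did in the other settings. An unadjusted p below 0.05 was reached by 1039 genes (limma). Of the wider lists 1 gene passed, 3 with TPM, 2 with a robust variance and 1 to 3 with a pig left out. Over all transcripts 503 passed and 227 with a pseudocount of 1. Of the transcripts of the 7 genes 1 was past the thresholds (LSS-201, at 0 in all S-L pigs), 0 with a pseudocount of 1, and 1 to 2 with a pig left out, the second being LSS-203 without LW82. The cause of these changes was not tested. No paired analysis was possible because the groups hold different pigs whose labels carry no shared number. With 3 pigs a group and no counts, small differences were not detectable.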
